A study of Mus musculus with 12 samples.

Results

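The 38 genes described here are transcripts typical of liver that were measured in skeletal muscle of mice on chow or high-fat diet: secreted plasma proteins such as albumin (Alb), and enzymes, binding proteins and transporters of hepatocytes. They were chosen by the measured differences between these diet groups together with what is known of liver, so those differences are given as a description. A gene was measured where a probe set carried its symbol and no other, which held for 36 of the 38 genes (50 probe sets) out of 18193 genes in all. Gc and Serpina3k were not measured here. Where a gene had several probe sets, the brightest on average was used, and all values are the deposited RMA signals on the log2 scale, on which a difference of 1 is a doubling. No filter was set on dim genes, so all 36 measured genes were tested.

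Skeletal muscle of C57Bl/6 mice was hybridised to 12 Affymetrix arrays in 3 groups of 4. All mice ate chow with 13% of calories from fat up to 6 weeks of age, when the chow group stayed on it and the others were switched to a high-fat diet (46% of calories), lasting 5 or 42 days. No genotype other than the strain, and no drug, is given for any group. The labels give neither the sex, the muscle dissected, the age at sampling nor a batch, so time on the diet and age cannot be told apart between the 5-day and the 42-day arrays. Nothing in them says that replicates were separate animals, and p-values then measure only the spread between these samples. The 20 defining markers of skeletal muscle checked here were bright on every array, with a mean of 14.91 ± 0.01 (SD, n = 4) on chow, 14.91 ± 0.01 at 5 days and 14.91 ± 0.02 at 42 days, and 0 of the 20 passed limma at 42 days, of which 1 had an unadjusted p under 0.05. Equal values of markers this bright do not show an equal share of muscle, which was not tested. Array medians lay between 7.65 and 7.69 on chow, 7.60 and 7.63 at 5 days, and 7.66 and 7.70 at 42 days. Every 5-day median was thus below those of the chow and 42-day arrays. Precision here is limited by the number of arrays. In bulk tissue, fewer cells of a type and less RNA per cell cannot be told apart.

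Hepatocytes make most plasma proteins, among them albumin, the apolipoproteins of circulating lipoproteins, the fibrinogen chains of the clot and the inhibitors that restrain plasma proteases. They also hold the enzymes that break down amino acids, dispose of ammonia as urea and oxidise foreign compounds. Their genes are switched on together by liver-enriched transcription factors such as the HNF1, HNF4 and C/EBP proteins, and skeletal muscle fibres are not known as a main source of these transcripts.

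The stretches just before the transcription start are shown for Alb and for 5 genes that moved with it across arrays, with a slope on Alb past limma as given further on. They were picked after the values and the letters were seen, and 5 of these 6 genes hold the motif marked. The copies Serpina1b and Serpina1c are both among the 5 and have nearly the same stretch, so they are not separate matches. The stretches come from the RefSeq promoter table (build GRCm38.p6), which held 33 of the 36 measured genes, and are the 100 bases before the start, 5′ to 3′ on the gene's strand. Capitals mark GTTAAT or its reverse complement ATTAAC, the core of the HNF1 site. In Alb (chr5:90460770-90460869, plus strand) its first base lay 32 bases before the start, in Serpina1b (chr12:103738190-103738289, minus strand) 26, in Serpina1c (chr12:103904951-103905050, minus strand) 27, in Fga (chr3:83026053-83026152, plus strand) 43 and in Fgb (chr3:83049864-83049963, minus strand) 29. In the stretch before Apoa1 (chr9:46228530-46228629, plus strand) these letters do not occur.
Alb: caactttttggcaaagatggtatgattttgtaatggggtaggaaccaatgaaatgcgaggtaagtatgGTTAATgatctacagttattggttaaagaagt
Serpina1b: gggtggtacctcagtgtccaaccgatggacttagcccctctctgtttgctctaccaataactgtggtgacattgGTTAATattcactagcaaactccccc
Serpina1c: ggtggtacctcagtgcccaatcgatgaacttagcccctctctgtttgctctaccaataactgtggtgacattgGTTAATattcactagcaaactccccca
Fga: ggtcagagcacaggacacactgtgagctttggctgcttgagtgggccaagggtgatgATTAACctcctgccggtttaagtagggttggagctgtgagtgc
Fgb: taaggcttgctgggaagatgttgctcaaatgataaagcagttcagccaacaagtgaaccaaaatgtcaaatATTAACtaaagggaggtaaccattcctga
Apoa1: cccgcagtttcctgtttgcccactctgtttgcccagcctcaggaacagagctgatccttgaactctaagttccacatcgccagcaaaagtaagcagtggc

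In the whole promoters of the table, 250 bases before to 50 after the start, GTTAAT on either strand occurred in 8 of 33 members (24.2%) and in 8.24% of 27025 genes. Besides the 5 shown, these were Fabp1, Mug1 and Vtn, at 107, 73 and 112 bases before the start. The 8 count the copies Serpina1b and Serpina1c separately. The C/EBP motif TTNNGCAA (reverse complement TTGCNNAA) occurred in 14 of 33 members (42.4%) and in 12.2% of genes, the TATA motif TATAAA (reverse complement TTTATA) in 8 of 33 (24.2%) and in 15.7%, and the HNF4 motif CAAAGTCCA (reverse complement TGGACTTTG) in 0 of 33 and in 0.555%. Motifs were searched separately on both strands and may overlap. A match is a description of the letters and was not tied to binding in these samples.

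After 42 days of high-fat diet most of the liver-typical transcripts were higher than on chow. The median difference of the 36 genes was 0.72 on the log2 scale, beside a median of -0.01 over all 18193 genes, and 34 of the 36 were higher. By limma, 19 of 36 were higher at an adjusted p under 0.05, as were 2.12% of all genes, and 0 of 36 were lower, as were 3.44% of all genes. Before adjustment, 30 of 36 were higher at p under 0.05 (8.43% of all genes) and 0 lower. All 4 arrays at 42 days exceeded all 4 on chow in 25 of 36 genes (5.19% of all genes) and lay below them in 0 of 36 (8.66%), and 24 of 36 were higher by over 0.5 (0.5% of all genes). Since this contrast chose the genes, nothing is read from these counts. After 5 days the median difference from chow was 0.13, beside -0.01 over all genes. There 1 of 36 was higher by limma (Bhmt2; 1.6% of all genes), and 1 lower (Cyp2e1; 2.2% of all genes). The same 2 genes were the ones whose 5-day arrays did not overlap chow (5.29% of all genes higher, 6.47% lower), and 2 of 36 were higher at an unadjusted p under 0.05 (10.6% of all genes). Between 42 and 5 days the median difference was 0.66, 22 of 36 were higher by limma (2.75% of all genes) and 0 lower (5.77% of all genes; 0 also at an unadjusted p under 0.05), but all 42-day arrays exceeded all 5-day arrays only in Alb, Gnmt and Serpinc1 (7.17% of all genes). The 5-day and 42-day comparisons share the chow arrays. The counts rested on single arrays: the 19 became 3 without chow replicate 3, 12 without chow replicate 4, and 9, 8 or 6 without 42-day replicate 1, 2 or 4. The calls over all genes, 1011 in either direction on 12 arrays, fell as well, to 228, 598, 400, 388 and 298. The 22 called between 42 and 5 days became 9, 0 or 3 without 5-day replicate 1, 2 or 3. Over all genes, the 1550 called there became 1750, 16 and 395. The 22 became 0 without 42-day replicate 1 and 2 without either of 42-day replicates 2 and 4. In these 3 settings 0, 250 and 607 of all genes were called. The 2 median differences stayed between 0.59 and 0.87 and between 0.51 and 0.80. The 5-day median was -0.087 without 5-day replicate 4. The 2 genes called at 5 days became 0 or 1 without any of the arrays other than chow replicate 2 and 42-day replicate 1, 2 or 4. Over all genes, the 692 called at 5 days then became 6 to 790.

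**Figure D1:**
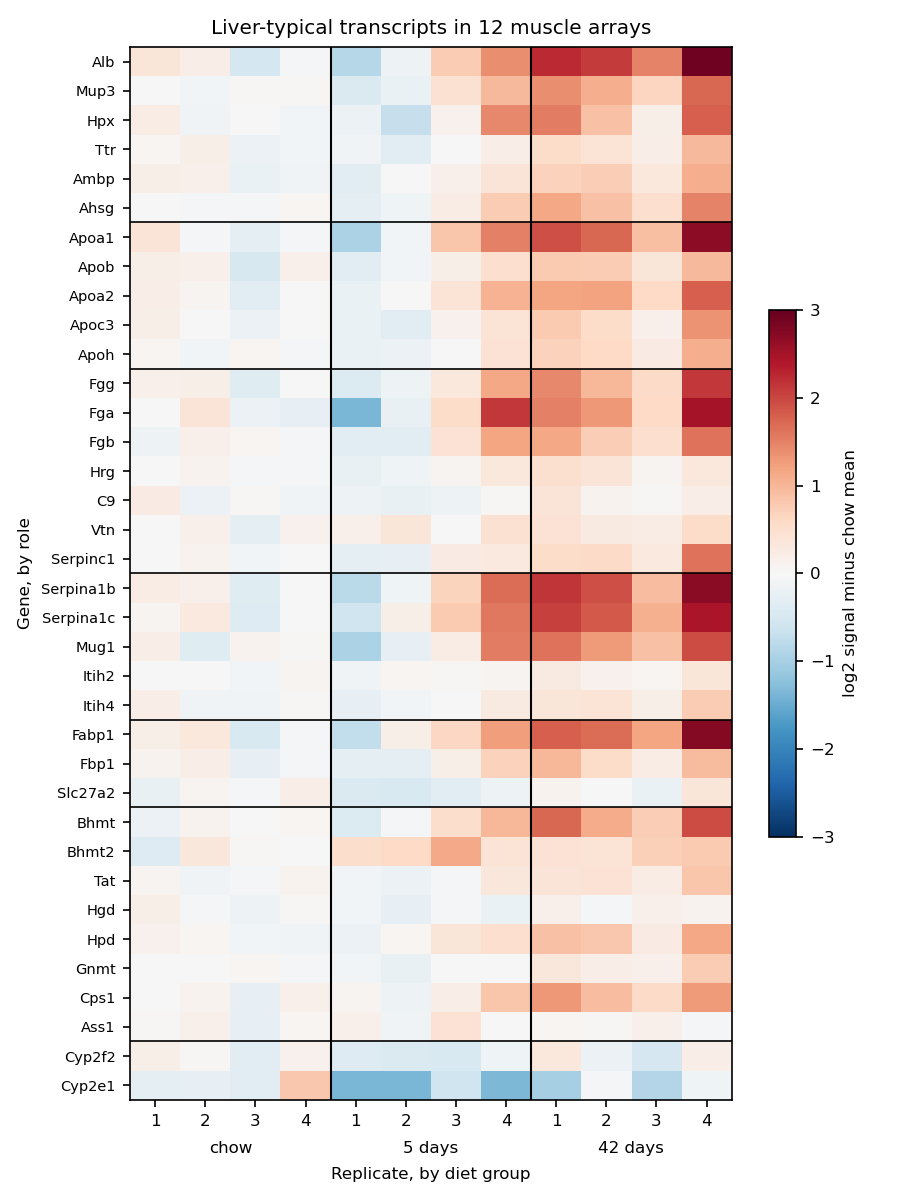
Log2 signal of each of the 36 genes (vertical axis, ordered by role, lines between roles) on each of the 12 arrays (horizontal axis, replicates 1 to 4 of each diet group), minus the gene's chow mean; red is higher and blue lower than the chow mean. The 42-day columns are red in 34 of 36 genes on average, 5-day replicate 1 is mostly blue and 5-day replicate 4 mostly red, and Cyp2e1 at the bottom is blue in both high-fat groups.

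Among the plasma carrier proteins, which bind hormones, haem, lipids or other small molecules in blood, 5 of 6 measured were higher by limma at 42 days, with a median difference of 1.05. The share of all genes beside this count, and beside those of the roles that follow, was 2.12%. Alb, the main protein of plasma and carrier of fatty acids, read 10.03, 9.89, 9.15 and 9.65 on the chow arrays, 8.82, 9.53, 10.43 and 11.08 at 5 days and 11.91, 11.79, 11.17 and 12.61 at 42 days. Every 42-day array lay above every chow and 5-day array, while the 5-day arrays lay on both sides of the chow values. The 42-day difference from chow was 2.19 ± 0.39 (SE, from 4 arrays a group and a spread shared by all 12, as for each difference that follows), a 4.56-fold higher signal, against 0.28 ± 0.39 at 5 days. Mup3, a major urinary protein that carries pheromones, read 7.64, 7.54, 7.67 and 7.65 on chow, 7.20, 7.42, 8.09 and 8.60 at 5 days and 9.02, 8.72, 8.27 and 9.34 at 42 days. Its chow arrays differed by 0.13 at most, and all 42-day arrays lay above them (1.21 ± 0.25). Hpx, hemopexin, the scavenger of free haem, read 8.01, 7.67, 7.76 and 7.69 on chow, 7.61, 7.08, 7.92 and 9.23 at 5 days and 9.33, 8.67, 7.95 and 9.57 at 42 days. Its groups overlapped, since the lowest 42-day array lay below the highest chow array, and its difference of 1.09 ± 0.38 did not pass limma. Ttr, transthyretin, the carrier of thyroxine and of retinol-binding protein, read 9.23, 9.35, 9.0 and 9.10 on chow, 9.07, 8.84, 9.16 and 9.37 at 5 days and 9.72, 9.59, 9.37 and 10.15 at 42 days, with no overlap between 42 days and chow and a difference of 0.54 ± 0.14. Ambp, the precursor of alpha-1-microglobulin and bikunin, was higher by 0.71 ± 0.15. Ahsg, fetuin-A, which keeps calcium phosphate in solution, was higher by 1.01 ± 0.20.

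Of the 5 apolipoproteins, which build lipoprotein particles, 4 were higher by limma at 42 days, with a median difference of 0.72. Apoa1, the main protein of high-density lipoprotein, read 8.80, 8.38, 8.13 and 8.38 on chow, 7.47, 8.35, 9.26 and 9.94 at 5 days and 10.36, 10.15, 9.32 and 11.10 at 42 days. Its 42-day arrays lay above all chow arrays by a mean of 1.81 ± 0.42, and 5-day replicate 4 lay above the lowest 42-day array. Apoa2, the other main protein of that particle, read 8.83, 8.71, 8.31 and 8.64 on chow, 8.42, 8.62, 9.03 and 9.66 at 5 days and 9.81, 9.83, 9.22 and 10.42 at 42 days. The 42-day arrays did not overlap chow (1.20 ± 0.25) and did overlap 5-day replicate 4. Apoh, beta-2-glycoprotein I, which binds phospholipids, read 8.52, 8.39, 8.51 and 8.43 on chow, 8.26, 8.30, 8.48 and 8.89 at 5 days and 9.15, 9.07, 8.70 and 9.56 at 42 days. The chow values spanned only 0.14, and the 42-day difference was 0.66 ± 0.15. Apob, the structural protein of very-low-density and low-density lipoprotein, was higher by 0.72 ± 0.18. Apoc3, an inhibitor of lipoprotein lipase whose gene is the neighbour of Apoa1, was higher by 0.71 ± 0.20 and missed the threshold at 42 days.

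The fibrinogen chains and the other coagulation, complement and matrix-binding proteins had a median 42-day difference of 0.76, with 1 of 7 higher by limma. That gene was Fgg, the gamma chain of fibrinogen (1.28 ± 0.31). The alpha and beta chains, encoded beside it in the same cluster, were higher by 1.48 ± 0.54 in Fga and 1.01 ± 0.28 in Fgb without passing the test. Fga, added to the genes printed by array after its values were seen, read 7.35, 7.73, 7.17 and 7.09 on chow, 5.95, 7.12, 7.90 and 9.45 at 5 days and 8.85, 8.64, 7.94 and 9.83 at 42 days. The 4 arrays at 5 days spanned 3.49, an 11.3-fold range of signal, which was the widest range of the 36 genes in any group. Serpinc1, antithrombin, the inhibitor of thrombin, was higher by 0.76 ± 0.22. Hrg, histidine-rich glycoprotein, read 8.39, 8.51, 8.34 and 8.36 on chow, 8.17, 8.27, 8.47 and 8.71 at 5 days and 8.87, 8.79, 8.47 and 8.72 at 42 days, a 42-day difference of 0.32 ± 0.11 with overlap between the groups. C9, a component of the membrane attack complex of complement, read 8.45, 8.04, 8.23 and 8.09 on chow, 8.05, 7.98, 8.04 and 8.25 at 5 days and 8.58, 8.30, 8.23 and 8.40 at 42 days. Its groups overlapped throughout (0.18 ± 0.094 at 42 days). Vtn, vitronectin, an adhesive protein of plasma and matrix, read 9.31, 9.45, 9.01 and 9.42 on chow, 9.46, 9.65, 9.30 and 9.75 at 5 days and 9.73, 9.57, 9.53 and 9.86 at 42 days. The 42-day values lay above chow (0.37 ± 0.11) but not above 5 days (0.13 ± 0.11).

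**Figure D2:**
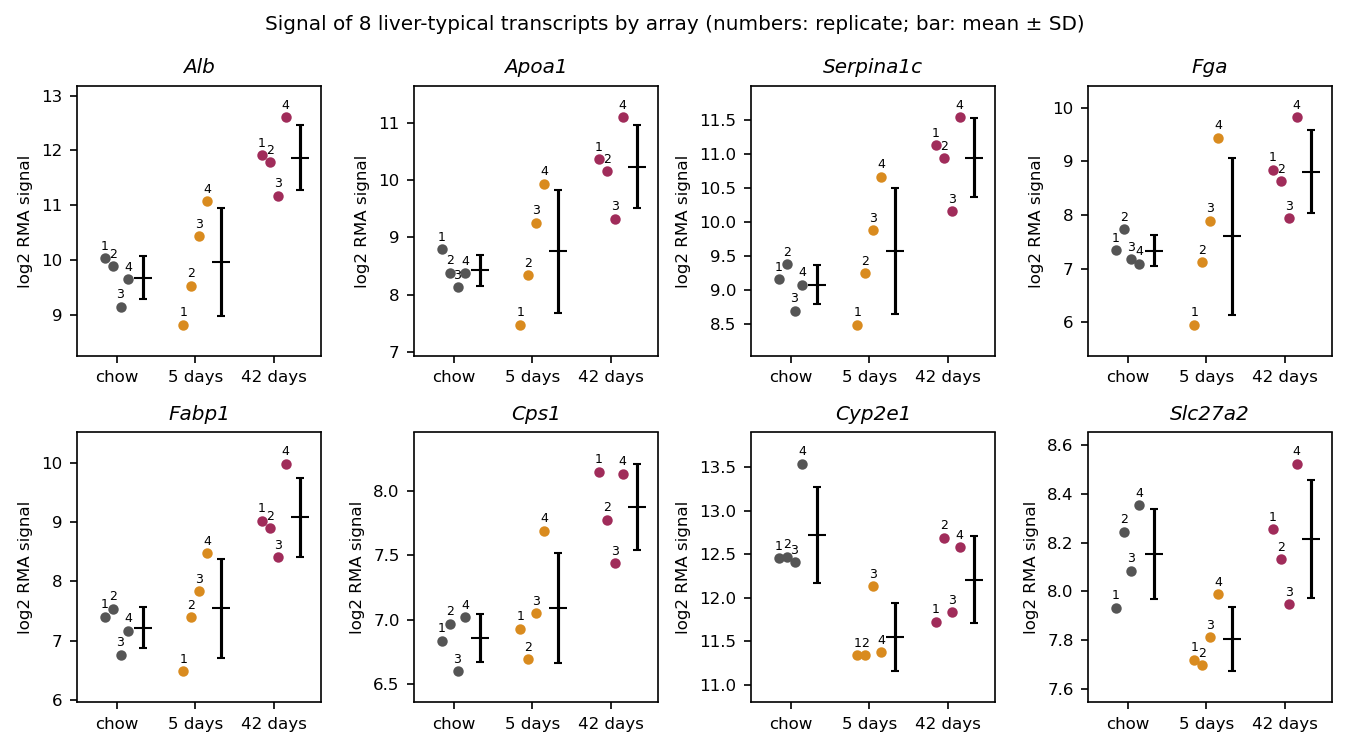
Log2 RMA signal (vertical axes, scaled to each gene) of 8 of the genes on each array, by diet group (horizontal axis); numbers give the replicate, and bars the mean ± SD of 4 arrays. In all panels but that of Cyp2e1, 5-day replicate 4 is the highest and 42-day replicate 3 the lowest array of its group, and in Cyp2e1 the 5-day arrays lie below all chow arrays.

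Plasma protease inhibitors had the highest median 42-day difference of the 7 roles, 1.44, and 3 of 5 were higher by limma. The copies Serpina1c and Serpina1b are both among these, so the median, its rank and the count rest partly on 1 pair of copies. Serpina1c, an alpha-1-antitrypsin, the inhibitor of neutrophil elastase, read 9.16, 9.38, 8.70 and 9.08 on chow, 8.49, 9.25, 9.88 and 10.67 at 5 days and 11.13, 10.93, 10.16 and 11.54 at 42 days. Its near-identical copy Serpina1b read 8.28, 8.21, 7.69 and 8.05 on chow, 7.25, 7.93, 8.73 and 9.73 at 5 days and 10.21, 9.99, 8.98 and 10.76 at 42 days. In both genes no 42-day array overlapped chow, and 5-day replicate 4 lay above 42-day replicate 3; the differences from chow were 1.86 ± 0.36 and 1.93 ± 0.42. Probe sets of such copies can bind each other's RNA, so the values of these genes are not separate evidence. Mug1, a murinoglobulin of the alpha-2-macroglobulin family, was higher by 1.44 ± 0.37. Itih2 and Itih4, heavy chains that bind hyaluronan and plasma proteins, did not pass limma. Itih2 read 8.28, 8.28, 8.18 and 8.35 on chow, 8.16, 8.33, 8.31 and 8.35 at 5 days and 8.53, 8.40, 8.34 and 8.64 at 42 days, so that the groups touched at 8.34 and 8.35 (0.20 ± 0.068). Itih4 was higher by 0.42 ± 0.12.

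Among the genes of intracellular lipid and carbohydrate handling, 1 of 3 was higher by limma at 42 days. Fabp1, the fatty acid binding protein of liver, read 7.41, 7.54, 6.77 and 7.17 on chow, 6.49, 7.40, 7.84 and 8.47 at 5 days and 9.03, 8.90, 8.40 and 9.98 at 42 days. All 42-day arrays lay above all chow arrays, by a mean of 1.85 ± 0.36, and 5-day replicate 4 lay just above the lowest of them. Fbp1, fructose-1,6-bisphosphatase of gluconeogenesis, read 7.91, 7.996, 7.55 and 7.77 on chow, 7.52, 7.54, 7.98 and 8.51 at 5 days and 8.79, 8.36, 8.03 and 8.76 at 42 days, without overlap of 42 days and chow (0.68 ± 0.20). Slc27a2, a fatty acid transporter and very-long-chain acyl-CoA synthetase, read 7.93, 8.24, 8.09 and 8.35 on chow, 7.72, 7.70, 7.81 and 7.99 at 5 days and 8.26, 8.13, 7.95 and 8.52 at 42 days. Its 42-day and chow arrays lay over the same range (0.061 ± 0.11), and the 5-day mean was the lowest (-0.35 ± 0.11 against chow, not past limma).

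The enzymes of methyl group transfer, amino acid breakdown and the urea cycle had a median 42-day difference of 0.53, and 5 of 8 were higher by limma. Bhmt, which remethylates homocysteine with betaine, was higher by 1.38 ± 0.27, and Cps1, which feeds ammonia into the urea cycle, by 1.02 ± 0.19. Hpd, the 4-hydroxyphenylpyruvate dioxygenase of tyrosine breakdown, was higher by 0.77 ± 0.17. Tat, the tyrosine aminotransferase before it, read 8.18, 8.01, 8.04 and 8.21 on chow, 8.03, 7.95, 8.08 and 8.46 at 5 days and 8.49, 8.54, 8.33 and 8.93 at 42 days, with no overlap of 42 days and chow (0.46 ± 0.12). Gnmt, glycine N-methyltransferase, read 7.97, 7.97, 8.03 and 7.93 on chow, 7.88, 7.75, 7.98 and 7.95 at 5 days and 8.32, 8.16, 8.12 and 8.73 at 42 days. All its 42-day arrays lay above the 8 others, by 0.36 ± 0.10 over chow, which was not past limma. Hgd, homogentisate dioxygenase, the next enzyme of tyrosine breakdown, read 8.43, 8.22, 8.10 and 8.29 on chow, 8.18, 8.01, 8.24 and 8.07 at 5 days and 8.42, 8.23, 8.42 and 8.36 at 42 days. Its groups overlapped (0.096 ± 0.074), as did those of the urea cycle enzyme Ass1 (0.047 ± 0.10). Bhmt2, a methyltransferase encoded beside Bhmt, had another order in time on the probe set used: it read 4.93, 5.68, 5.37 and 5.33 on chow, 5.86, 5.92, 6.47 and 5.75 at 5 days and 5.76, 5.75, 6.05 and 6.11 at 42 days. These values lay near or below the lower quartile of the arrays (6.45 to 6.51 on average), where signals are limited by background. A second set gave -0.027 at 5 days against chow. On the set used both high-fat groups lay above chow, by 0.67 ± 0.16 at 5 days and 0.59 ± 0.16 at 42 days, and the difference between them was -0.082 ± 0.16, not past limma.

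Neither of the cytochrome P450 enzymes was higher at 42 days. Cyp2e1, which oxidises ethanol and ketone bodies, read 12.46, 12.48, 12.41 and 13.54 on chow, 11.34, 11.34, 12.13 and 11.37 at 5 days and 11.73, 12.69, 11.84 and 12.58 at 42 days. All 5-day arrays lay below all chow arrays, with a mean difference of -1.18 ± 0.27, and the 42-day arrays overlapped both groups (-0.51 ± 0.27 against chow). Chow replicate 4 and 5-day replicate 3 were far above the others of their groups. Without chow replicate 4 the 42-day difference was -0.24. Cyp2f2, an enzyme of naphthalene oxidation, read 8.93, 8.80, 8.44 and 8.89 on chow, 8.37, 8.34, 8.32 and 8.63 at 5 days and 9.08, 8.58, 8.26 and 8.95 at 42 days, with overlap of all groups (-0.047 ± 0.15 at 42 days).

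The liver-typical genes varied among arrays of the same group, and most did so in the same order. Within the 5-day group, replicate 4 had the highest value in 31 of 36 genes (21.9% of all genes) and replicate 1 the lowest in 22 of 36 (24.2% of all genes). Within the 42-day group, replicate 4 was highest in 28 of 36 (27.4% of all genes) and replicate 3 lowest in 32 of 36 (24.7% of all genes). On chow, replicate 3 was lowest in 23 of 36 (23.3% of all genes). The mean over the 36 genes lay between 7.75 and 7.99 on the chow arrays (7.92 ± 0.11, SD, n = 4), between 7.56 and 8.55 at 5 days (8.01 ± 0.44) and between 8.30 and 9.20 at 42 days (8.75 ± 0.37). At 5 days the SD was the largest of the 3 groups in 20 of 36 genes (37.0% of all genes). The range of the 4 arrays at 5 days exceeded the 42-day difference from chow in 28 of 36 genes, as it did in 84.1% of all genes.

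With the group means taken out, most of the other 35 genes followed Alb across the 12 arrays. This measure leaves out the differences between groups that chose the genes. In limma with group means and the Alb value as a covariate, 17 of 35 genes had a positive slope on Alb at an adjusted p under 0.05, as did 23 of 18192 genes in all (0.126%), and 0 of 35 a negative one (0 also at an unadjusted p under 0.05). Pearson's r of the deviations was above 0 in 35 of 35 genes, above 0.9 in 13 of 35 (0.0934% of all genes), and its median was 0.850, beside -0.038 over all other genes. The median was 0.830 without 5-day replicates 1 and 4, the arrays whose Alb lay farthest from its median, and r was then above 0.9 in 10 of 35 (again 0.0934% of all genes). The 17 slopes became 10 without 5-day replicate 4, where the 23 over all genes became 11. An exact permutation test of r, two-sided over the 13824 arrangements within groups, gave a positive r at an unadjusted p under 0.05 in 28 of 35 genes and in 1.66% of all genes. Adjusted over 18192 genes, 0 passed: the smallest p that these arrangements can give is 7.23e-05, and the smallest adjusted p was 0.329.

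Apoa1, Serpina1b, Serpina1c and Fabp1 followed Alb most closely. Apoa1 moved by 1.07 ± 0.063 for each log2 unit of Alb (limma adjusted p = 1.42e-06; r = 0.982, exact permutation p = 0.000362, adjusted 0.411; Spearman's rho = 0.986, p = 0.000145, adjusted 0.493; r = 0.957 without the 2 arrays named above). Serpina1b moved by 1.06 ± 0.068 (r = 0.977, rho = 0.965), Serpina1c by 0.91 ± 0.059 (r = 0.978, rho = 0.979) and Fabp1 by 0.89 ± 0.063 (r = 0.974, rho = 0.965). Fga had the steepest slope, 1.31 ± 0.12 (r = 0.950, rho = 0.916), and its neighbours Fgg and Fgb had slopes of 0.76 ± 0.076 (r = 0.945) and 0.64 ± 0.097 (r = 0.878). The other genes past the test were Apoa2, Apob, Apoc3, Mup3, Ambp, Ahsg, Mug1, Fbp1, Bhmt and Hpd, with slopes between 0.36 in Ambp and 0.84 in Mug1. The 5 lowest r were those of Bhmt2 (0.056), Ass1 (0.065), Hgd (0.116), Cyp2e1 (0.287) and C9 (0.436). These depended in part on the probe set used. A second set gave an r of 0.650 for Bhmt2 and 0.847 for Hgd, and a set shared by Ass1 and Gm5424 gave 0.822.

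**Figure D3:**
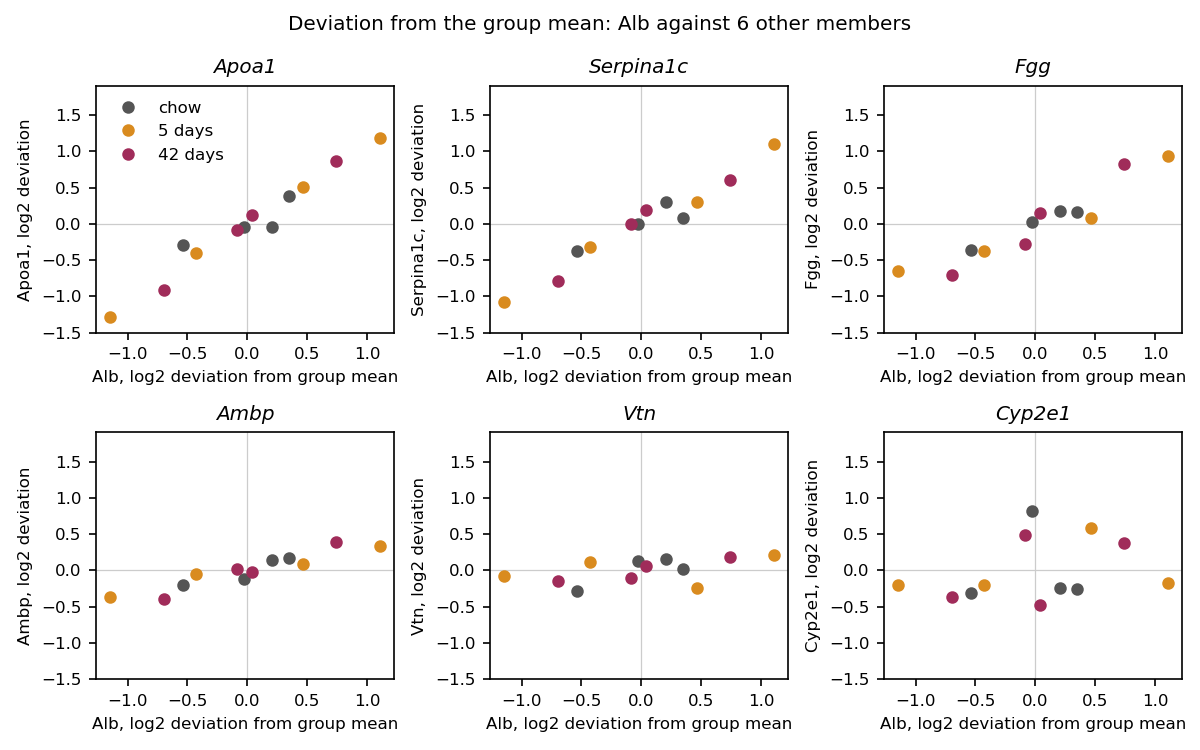
Deviation of Alb from its group mean (horizontal axes, log2) against that of 6 other genes (vertical axes, log2, same scale in all panels), 1 point for each of the 12 arrays, coloured by diet group. Apoa1, Serpina1c and Fgg rise with Alb in all 3 colours with slopes of 1.07, 0.91 and 0.76, Ambp does so with a slope of 0.36, and Cyp2e1 shows no such order (r = 0.287).

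The first principal component of the scaled within-group deviations of the 36 genes held 70.5% of their variance and the second 7.52%. Of 630 pairs of genes, 572 had a positive within-group r, and the median was 0.758. Across the 35 genes, those with steeper slopes on Alb within groups also had larger 42-day differences from chow (Pearson r = 0.890 across genes, which are not independent and share the 42-day arrays). The 42-day difference is the contrast that chose the genes, so this r is a description. All 35 differences were below that of Alb, and 32 of 35 slopes were below 1.

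Outside the named set, 6 genes had a slope on Alb past limma: Rdh7, Plg, Pigr, Mat1a, F2 and Sult2a8. Plg (plasminogen) and F2 (prothrombin) are plasma proteins of liver, and Mat1a makes S-adenosylmethionine there. Plg had a slope of 0.50 (adjusted p = 0.00442, r = 0.910) and was 0.77 higher at 42 days than on chow. The probe set of Rdh7, a retinol dehydrogenase, had a slope of 0.49 (adjusted p = 0.00125, r = 0.936) and was 0.83 higher at 42 days. In order of r alone, among genes neither named nor past that test, the most like Alb over the 12 arrays was Dad1 (r = 0.905), with a slope of only 0.051.

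**Figure D4:**
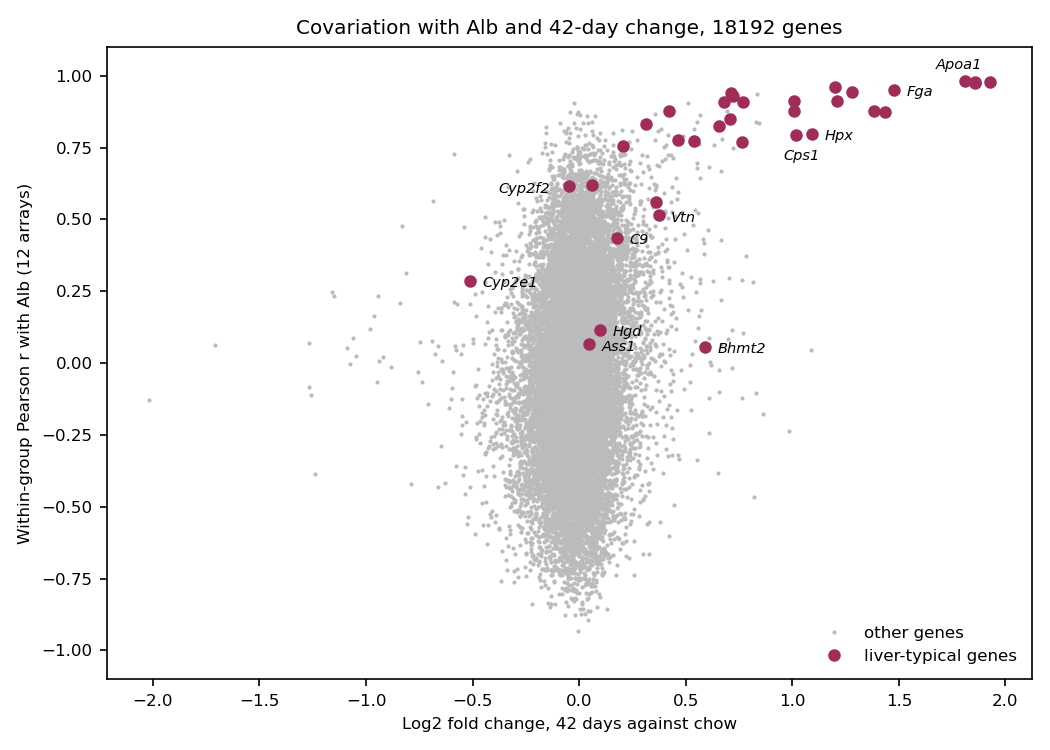
Within-group Pearson r with Alb over the 12 arrays (vertical axis) against the log2 difference of 42 days from chow (horizontal axis) for 18192 genes; large points are the 35 liver-typical genes other than Alb. Most of the large points lie at the upper right (median r 0.850). Bhmt2, Ass1, Hgd, Cyp2e1 and C9 have the 5 lowest r on the probe sets used, and Cyp2f2 and Cyp2e1 are the 2 genes lower at 42 days.

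The same model gave the group differences at equal Alb. At 42 days against chow the median over the 35 genes was then -0.12, from 0.71 without the Alb term, at 5 days against chow -0.044, from 0.12, and between 42 and 5 days -0.12, from 0.65. By limma 0 of 35 genes differed at 42 days from chow (0% of all genes), with 4 of 35 at an unadjusted p under 0.05, all lower, beside 7.5% of all genes in either direction. The largest differences in size were those of Fga (-1.40 ± 0.31), Cyp2e1 (-0.95 ± 0.47) and Hpx (-0.59 ± 0.42). At 5 days 1 of 35 differed (1.4% of all genes), which was Cyp2e1 (-1.23 ± 0.27), with 5 of 35 at an unadjusted p under 0.05, beside 22.6% of all genes. Between 42 and 5 days 0 of 35 differed (0% of all genes), with 5 of 35 at an unadjusted p under 0.05, all lower, beside 15% of all genes in either direction. These are the contrasts that chose the genes, so they are given as a description. Alb itself differed between the groups, which widens the standard errors of these terms, so that a p above the threshold does not show equal levels. The lowest Alb at 42 days was 11.17, and the highest was 10.03 on chow and 11.08 at 5 days. The terms with 42 days thus extend the within-group slopes to Alb levels that these groups did not share. All 35 genes also differed by less than Alb between 42 days and chow. Nothing is therefore read from the lower medians at equal Alb in the comparisons with 42 days.

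Other genes of liver were looked at from 3 lists outside the named set. Of 44 other secreted proteins of hepatocytes, 5 were higher by limma at 42 days (2.12% of all genes) and 0 lower (3.44% of all genes). In direction 38 were higher, beside 8203 of all 18193 genes, and the median difference was 0.15. Among the 5 were Apof (0.72 ± 0.17, adjusted p = 0.0246), Hamp, the iron hormone hepcidin (0.55 ± 0.14, adjusted p = 0.0372), F13b, a subunit of coagulation factor XIII (0.47 ± 0.12, adjusted p = 0.0408), and Apoc4 (0.46 ± 0.11, adjusted p = 0.0311). Of 54 other enzymes and transporters of hepatocytes, 8 were higher and 0 lower by limma (again 2.12% and 3.44% of all genes), with a median of 0.16. Arg1, the arginase of the urea cycle, was higher by 0.83 ± 0.19 (adjusted p = 0.0245), the urate oxidase Uox by 0.63 ± 0.14 (adjusted p = 0.0235), Cyp2d10 by 0.56 ± 0.13 (adjusted p = 0.0271) and Cyp2c50 by 0.55 ± 0.11 (adjusted p = 0.0167). The group means of F13b (4.94 to 5.41) and Cyp2d10 (5.47 to 6.03) and the chow mean of Arg1 (6.14) lay below the lower quartile of the arrays. That quartile was 6.45 to 6.51 on average, and signals there are limited by background. The mean of each of these 2 lists followed Alb within groups: by exact permutation over the 12 arrays, adjusted over 15 relations of this kind, r was 0.857 for the secreted proteins (adjusted p = 0.00922; rho = 0.895, adjusted p = 0.0152) and 0.836 for the enzymes and transporters (adjusted p = 0.00922; rho = 0.867, adjusted p = 0.0184). Without 5-day replicates 1 and 4, r was 0.911 and 0.867. Of 15 liver-enriched transcription factors, 0 were past limma at 42 days, 4 were higher and 1 lower at an unadjusted p under 0.05, and the median was 0.044. Their mean did not pass the same test against Alb (r = 0.360, adjusted p = 0.515; rho = 0.399, adjusted p = 0.449; r = 0.601 without those arrays). At 5 days against chow the secreted proteins had 0 higher and 2 lower by limma, and the enzymes and transporters 0 higher and 2 lower (1.6% and 2.2% of all genes). The factors had 0 higher and 1 lower, and 14 of 15 were lower in direction, as were 9644 of all 18193 genes. Of 12 kidney tubule, 12 enterocyte and 12 exocrine pancreas markers, 10, 8 and 4 were lower in direction. Between 42 and 5 days, 9 of 44 secreted proteins, 19 of 54 enzymes and transporters and 4 of 15 factors were higher by limma, and 0 lower. The shares of all genes were 2.75% and 5.77%. All 15 factors were then higher in direction, 8 at an unadjusted p under 0.05 (13.7% of all genes). In direction, 9453 of all 18193 genes were higher there, as were 10, 9 and 6 of the kidney tubule, enterocyte and exocrine pancreas markers. A lower or higher direction was thus not particular to the factors. These lists were drawn from textbook markers with earlier results of these arrays known.

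Markers of other cell types gave the following values beside these results. Kupffer cell markers (7 genes) had 0 past limma at 42 days, 0 at an unadjusted p under 0.05 and a mean between 7.09 and 7.25 on chow, 7.06 and 7.20 at 5 days, and 7.16 and 7.25 at 42 days. Cholangiocyte markers (8 genes) had 0 past limma and 1 at an unadjusted p under 0.05, with means of 7.42 on chow and 7.46 at 42 days. Red blood cell markers (8 genes) had 0 past limma and 1 at an unadjusted p under 0.05, with means of 7.36 on chow, 7.29 at 5 days and 7.38 at 42 days. Kidney tubule (12), enterocyte (12) and exocrine pancreas (12) markers had 0, 1 and 0 past limma, with medians of -0.0040, 0.016 and -0.0051, and the 1 gene was Apoa4 (0.26 ± 0.06, adjusted p = 0.0273), an apolipoprotein. Before adjustment, p was under 0.05 for 1 kidney gene, Apoa4 and 0 pancreas genes among those higher. Of 17 acute phase proteins, 2 were higher by limma, beside 2.12% of all genes (Hamp, and Apcs by 0.27 ± 0.06, adjusted p = 0.0242), and the median was 0.23. Their mean had a within-group r of 0.760 with Alb, which missed the threshold once adjusted (exact permutation p = 0.0153, adjusted 0.0575; rho = 0.769, adjusted p = 0.0895; r = 0.604 without 5-day replicates 1 and 4). For the red blood cell markers r with Alb was 0.162 (exact permutation p = 0.552; rho = 0.070, p = 0.841), and for the markers of skeletal muscle -0.40 (p = 0.247; rho = -0.49, p = 0.165). The means of the Kupffer, cholangiocyte, kidney, enterocyte and pancreas markers had within-group r with Alb between -0.24 and -0.60, none past an exact permutation test (adjusted p of 0.381 or more, unadjusted 0.127 or more; rho between -0.12 and -0.56, adjusted p of 0.378 or more). Without 5-day replicates 1 and 4, r was positive for 4 of the 5 lists, from 0.231 to 0.429, and -0.242 for the cholangiocyte markers.

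Tendon markers were higher in the 42-day group. Of 12 genes, 9 were higher by limma at 42 days and 12 were higher in direction (median 0.58), with means between 8.67 and 8.85 on chow, 8.72 and 9.19 at 5 days, and 9.16 and 9.42 at 42 days. Over all 18193 genes, 2.12% were higher by limma at 42 days and 8203 were higher in direction. Tnmd, tenomodulin, was higher by 1.09 ± 0.17 (adjusted p = 0.00543). The mean of the tendon markers had a within-group r of -0.16 with Alb (exact permutation p = 0.775; rho = -0.063, p = 0.880), and their part in the liver-typical differences was not tested. Adipocyte markers ran the other way: of 10, 9 were lower in direction at 42 days, 0 past limma and 5 at an unadjusted p under 0.05, with means between 9.73 and 10.57 on chow, 9.45 and 9.71 at 5 days, and 9.31 and 10.003 at 42 days. Over all 18193 genes, 9981 were lower in direction at 42 days, 2444 of them at an unadjusted p under 0.05. At 5 days 2 of the 10 adipocyte markers were lower by limma (2.2% of all genes). Before adjustment 5 were lower there at p under 0.05, as were 2574 of all 18193 genes. The within-group r of Cyp2e1 with the adipocyte mean was 0.918 (exact permutation, adjusted p = 0.00977), and 0.794 without chow replicate 4 and 42-day replicate 2. Spearman's rho was 0.839 and missed the threshold (exact permutation, adjusted p = 0.0738). Such an r was computed for all 36 genes, and Cyp2e1, which had the highest, was the only one tested besides Alb. The adjusted p-values do not count that choice, so the r of Cyp2e1 is a description. For Alb, r with that mean was 0.067 (exact permutation p = 0.806) and rho was 0.049 (p = 0.892). The mean difference between 3′ and 5′ probe sets of control transcripts, a sign of RNA quality, was 1.07 ± 0.06 (SD, n = 4) on chow, 1.02 ± 0.08 at 5 days and 0.89 ± 0.08 at 42 days. Its within-group r with Alb was 0.328 (exact permutation p = 0.369; rho = 0.273, p = 0.467), and its part in the group differences was not tested.

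**Figure D5:**
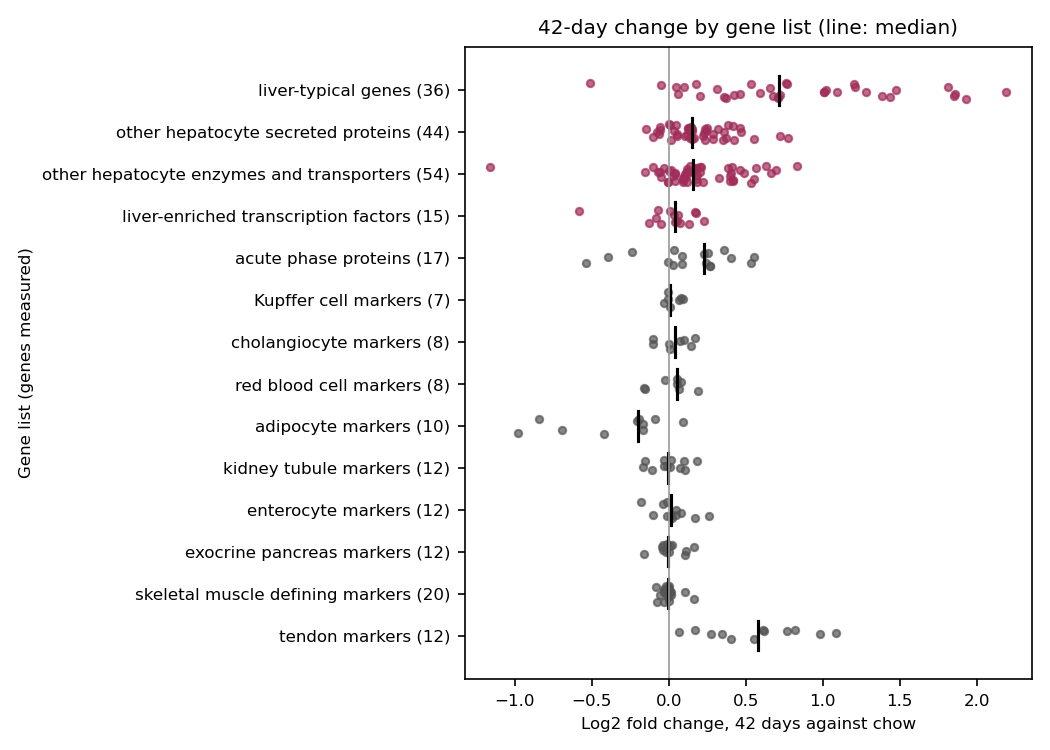
Log2 difference of 42 days from chow (horizontal axis) of each gene (point, spread vertically at random) in 14 lists (vertical axis, number of genes measured in brackets); the black line is the list's median. The liver-typical genes have a median of 0.72 and the tendon markers 0.58, the 2 other hepatocyte lists 0.15 and 0.16, and the markers of skeletal muscle lie near 0.

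Other probe sets of the same genes were compared for 10 of the 36 genes. Ttr was read by a set with a 42-day difference of 0.54, whereas its 3 other sets gave 1.80, 1.91 and 2.04, each with a within-group r with Alb of 0.956 or more. The second set of Fabp1 gave 2.07, those of Apoa1 1.31 to 1.74 and that of Serpina1b 1.54. In contrast the second sets of Mup3, Apob and Apoh gave 0.028, 0.080 and -0.071, beside 1.21, 0.72 and 0.66 in the sets used. The second Bhmt2 set gave 0.35 at 42 days and -0.027 at 5 days, so the 5-day difference of that gene was seen in only 1 of its 2 sets. The second Hgd set gave 0.23 at 42 days, beside 0.096 in the set used. Apoa1, Hrg, Mup3 and Serpina1b were read by sets whose names end in _x_at or _s_at, which mark probes shared with other transcripts.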

How the data were processed

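The authors deposited log2 signals per probe set and array that they had normalized with RMA, per the submitters' processing notes; no version is given, and the scale was judged by the span of the values. Biotin-labelled cRNA was hybridised to Affymetrix arrays, per the labels' protocols. Of 45098 probe sets, 61 controls, 932 with several symbols and 9160 with none were left out, and 34945 gave 18193 genes, each read by its probe set of highest mean; 34741 matched the RefSeq gene table by Entrez identifier and 0 symbols changed. Signals depend on each probe set's binding, so levels of different genes were ranked only to choose which to print by array and to leave out dim genes in 1 alternative.

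Group means were fitted to all 12 arrays with limma 3.58.1 in R 4.3.3 (lmFit, contrasts.fit, eBayes with a constant prior; 9 residual and 5.88 prior degrees of freedom), two-sided, with Benjamini-Hochberg adjustment over all genes in each of 3 contrasts and a threshold of 0.05. For covariation, the Alb value was added as a covariate. Errors are SE for differences and slopes and SD for group means. The fits were tested on simulated data with known changes and slopes. The members, the gene lists and the rule for genes named by array (Alb, the 3 brightest of each role, and those whose probe sets disagree by over 1) were chosen with earlier results of these data known. Alternatives were other normalizations, probe set rules, priors and array sets, with cyclic loess added after the data were seen. Python 3.11.15 with scipy 1.17.1 ran the permutation tests. Replicate numbers did not pair the arrays: of 12 same-number pairs, 3 had a correlation over 0.1 (range -0.176 to 0.221). Promoter letters came from RefSeq (GRCm38.p6).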

Additional observations from a re-analysis of the deposited data

Results flagged for a closer look

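Of 147 sets of 4 arrays, each a gene or a list mean in 1 diet group, 7 had 1 array far from the other 3 relative to the range (Dixon's test). Chance gives about 1 in 20, which is close to the share found, so the sets are listed as a description. Apob in chow replicate 3 was at 7.20, the lowest of its group by 0.615, which is the chow array that was lowest in 23 of the 36 genes. Cyp2e1 stood apart on 2 arrays: chow replicate 4, at 13.54, was 1.07 above the next of its group, and 5-day replicate 3, at 12.13, was 0.759 above the next. The mean of the acute phase proteins was 8.12 in chow replicate 4, 0.215 above the next chow array. The Kupffer cell markers had a mean of 7.20 in 5-day replicate 1, 0.132 above the next array of that group, and the enterocyte markers a mean of 7.14 in 42-day replicate 1, 0.0609 above the next. The exocrine pancreas markers had a mean of 8.29 in 5-day replicate 1, 0.629 above the next 5-day array; this was also the array with the lowest Alb.

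Probe sets that carry the symbol of a named gene together with other symbols were outside the comparisons, and 3 of them had a 42-day mean above that of chow. The set of Gm5424 and Ass1 had a mean of 7.41 on chow and 7.94 at 42 days, whereas the set of Ass1 alone differed by 0.047; its within-group r with Alb was 0.822. The set shared by Mug1, Mug2 and Mug-ps1 went from 7.03 to 8.08 (r = 0.862). That of Serpina1b, Serpina1c and Serpina1e went from 4.69 to 5.27 (r = 0.361).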

How the results depend on the processing

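Over the alternatives run, no value of a single gene that passed limma changed direction, and the 42-day median of the 36 genes lay between 0.59 and 0.87. Alb passed at 42 days against chow in 22 of 22 alternatives (differences of 1.94 to 2.42). Numbers of genes called depended on settings. At 42 days against chow, 19 became 11 with a trended and robust prior and 3 to 26 with 1 array left out. Over all genes, 1011 became 1277 and 228 to 1079. At 5 days, 2 became 1 with quantile normalization, with the dimmest 40% of genes left out (24 of the 36 remained), with the mean of the probe sets and with cyclic loess. The 2 became 0 with array weights, with the trended and robust prior and with the 8 arrays compared, and 0 to 2 with 1 array left out. The median of 0.131 became -0.0868 to 0.238. Over all genes, 692 became 208, 769, 696, 207, 159, 871, 7 and 6 to 790, in the same order. Between 42 and 5 days, 22 became 4 with quantile normalization, 3 with cyclic loess and 8 with the mean of the probe sets. The 22 became 11 with the trended and robust prior, 13 with the 8 arrays compared and 0 to 29 with 1 array left out. Over all genes, 1550 became 371, 363, 529, 1993, 1624 and 0 to 1972, in the same order. The median lay between 0.515 and 0.802. Slopes on Alb past limma went from 17 of 35 to 9 of 23 with the dimmest genes left out and 10 to 17 with 1 array left out, with a median r of 0.798 to 0.877. Over all genes, 23 slopes became 9 and 11 to 26. The causes were not tested. With the replicate number as a block, which the data did not bear out as a pairing (4 of the 12 had their best correlation with an array of their number), 24, 3 and 25 genes were called in the 3 contrasts and 9 slopes. Over all genes these were 1051, 880 and 1778, and 11 slopes. Probe sets near the lower quartile of an array (6.45 to 6.51 on average) are limited by background.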
